A study of Homo sapiens with 12 samples.

Results

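The 6 genes IFI6, IFI27, IFI35, IFI44, IFI44L and XAF1 were followed in U251 cells, an established human glioblastoma line. They were chosen by symbol from the 27685 genes of the expression table. All 6 were found, and all 6 were among the 15769 genes with enough counts to be tested. The 4 groups, with 3 libraries each, were shINCA1 cells treated for 24 h with interferon gamma (IFNγ), untreated shINCA1 cells, IFNγ-treated shCTRL cells and untreated shCTRL cells. shINCA1 cells stably carry a short hairpin RNA against the long noncoding RNA INCA1, and shCTRL cells a control hairpin. All were at passage 14 to 18. The sources used here name neither the hairpin sequences nor whether a line is a clone or a pool, so a difference between the hairpins is also a difference between lines. The study asked whether this RNA takes part in the interferon signalling of tumour cells.

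Interferons switch on a large set of genes through the JAK kinases and STAT transcription factors. IFNγ acts mainly through factors that bind gamma-activated sites, and the type I interferons through a complex with STAT2 and IRF9, which binds interferon-stimulated response elements. IRF1, itself made in answer to IFNγ, binds elements of the latter type as well. IFI6 and IFI27 encode small hydrophobic proteins of one family that sit in membranes of the endoplasmic reticulum or the mitochondria and have been linked to cell survival and cell death. IFI44 and IFI44L are neighbouring paralogues with antiviral roles, and IFI35 encodes a protein that pairs with NMI, another interferon-induced protein. XAF1 binds XIAP, the inhibitor of caspases, and counteracts it.

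The promoter windows of the 6 genes, from RefSeq on GRCh38.p14, were searched for elements of the types these pathways are known to use. Each runs from 250 bases before to 30 bases after the annotated start site nearest to the canonical transcript's start, 280 bases in all. They were read 5′ to 3′ on the gene's strand, from chr1:27672163-27672442 (minus strand) for IFI6, chr14:94110565-94110844 (plus strand) for IFI27, chr17:43006534-43006813 (plus strand) for IFI35, chr1:78649581-78649860 (plus strand) for IFI44, chr1:78620198-78620477 (plus strand) for IFI44L and chr17:6755796-6756075 (plus strand) for XAF1. Capitals mark matches, on either strand, to the interferon-type element, GAAA and GAAA with any 2 bases between them, to the same element with 1 base between, or to the gamma-type element, TTC and GAA with any 3 bases between them.
IFI6: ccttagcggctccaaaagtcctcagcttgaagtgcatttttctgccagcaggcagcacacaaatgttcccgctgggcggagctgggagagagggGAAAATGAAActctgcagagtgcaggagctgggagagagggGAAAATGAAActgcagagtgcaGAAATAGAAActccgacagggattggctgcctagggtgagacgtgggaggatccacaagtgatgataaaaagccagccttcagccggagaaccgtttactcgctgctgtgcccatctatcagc
IFI27: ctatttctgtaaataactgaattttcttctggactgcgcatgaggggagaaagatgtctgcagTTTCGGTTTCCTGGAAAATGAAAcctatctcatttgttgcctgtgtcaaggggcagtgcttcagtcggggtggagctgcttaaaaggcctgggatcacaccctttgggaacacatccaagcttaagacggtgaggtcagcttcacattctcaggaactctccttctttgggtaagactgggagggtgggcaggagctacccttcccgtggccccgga
IFI35: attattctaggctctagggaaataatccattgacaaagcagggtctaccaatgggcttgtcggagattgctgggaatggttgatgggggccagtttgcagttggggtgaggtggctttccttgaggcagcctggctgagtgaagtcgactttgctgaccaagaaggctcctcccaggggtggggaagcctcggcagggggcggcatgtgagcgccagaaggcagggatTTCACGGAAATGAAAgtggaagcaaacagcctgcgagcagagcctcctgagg
IFI44: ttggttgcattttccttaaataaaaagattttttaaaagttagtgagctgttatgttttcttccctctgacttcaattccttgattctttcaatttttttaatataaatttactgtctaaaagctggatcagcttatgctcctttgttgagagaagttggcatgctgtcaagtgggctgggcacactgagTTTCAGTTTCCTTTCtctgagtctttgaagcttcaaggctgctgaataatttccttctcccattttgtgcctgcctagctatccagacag
IFI44L: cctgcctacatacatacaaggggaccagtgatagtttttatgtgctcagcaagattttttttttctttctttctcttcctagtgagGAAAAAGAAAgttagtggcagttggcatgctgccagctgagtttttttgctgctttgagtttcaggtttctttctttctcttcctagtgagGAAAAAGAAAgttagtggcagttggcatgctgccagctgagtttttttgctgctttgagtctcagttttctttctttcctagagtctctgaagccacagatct
XAF1: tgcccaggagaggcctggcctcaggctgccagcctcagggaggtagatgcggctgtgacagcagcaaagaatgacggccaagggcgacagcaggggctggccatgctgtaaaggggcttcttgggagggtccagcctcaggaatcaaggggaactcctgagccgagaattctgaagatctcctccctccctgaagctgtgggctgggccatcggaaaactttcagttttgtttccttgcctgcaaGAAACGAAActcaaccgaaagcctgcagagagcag

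IFI6 held 3 matches to the interferon-type element with 2 bases between, IFI27 and IFI44L held 2 each and IFI44 held 1. IFI35 and XAF1 held none, but each had 1 match to the form with 1 base between, as did IFI44, where it overlapped the longer form. IFI27 and IFI35 each had 1 match to the gamma-type element, which overlapped the interferon-type elements beside it. Of 35116 windows of the same length, 3.39% held the form with 2 bases between, 2.96% the form with 1 base between and 7.3% the gamma-type element. The short spacing was searched only after these sequences had been read. The match of XAF1 lay across its start site, from position -5 to position 4, and a second annotated start of XAF1, 599 bases away, had no match to any of the 3 motifs.

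**Figure D1:**
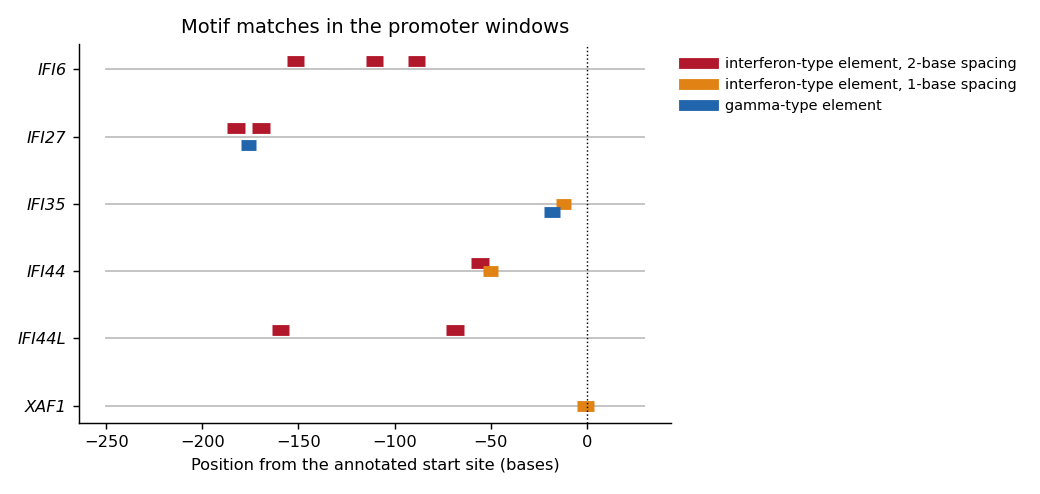
Motif matches in the 6 promoter windows. The horizontal axis is the position in bases from the annotated start site (dotted line), each gene has its own row, and bars mark matches to the interferon-type element with a spacing of 2 bases (red) or 1 base (orange) and to the gamma-type element (blue). The matches of IFI35 and XAF1 lie within 22 bases of the start site, and those of IFI6, IFI27, IFI44 and IFI44L lie farther before it.

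Library totals were 46525032 to 66242859 estimated counts, and replicates correlated at 0.971 to 0.978 on the log2 scale. Levels are given in CPM, counts scaled to library size with TMM factors. The entry named INCA1 in the table is a protein-coding gene on chromosome 17 with 5 to 19 counts per library. It is not the targeted noncoding RNA, whose level was not analysed here, so the hairpin labels were not checked against their target. Of 12 astroglial and glioblastoma markers, 8 in each shINCA1 group and in IFNγ-treated shCTRL cells, and 9 in untreated shCTRL cells, were at 1 CPM or more. The sum of all 12 was 3071 to 3132 CPM in shINCA1 libraries and 3569 to 3818 CPM in shCTRL libraries, without overlap. Most of it was VIM. The VIM means were 1917 CPM in treated and 1818 CPM in untreated shINCA1 cells, against 2565 and 2531 CPM in shCTRL cells. CD44 went the other way, with means in the same order of 822 and 883 CPM against 568 and 656 CPM. SOX9, SLC1A3 and CHI3L1 were also higher in shINCA1 cells at both conditions, while NES, SOX2 and FABP7 were lower. The astrocyte marker GFAP stood at 0.476 ± 0.163 CPM in treated and 0.348 ± 0.172 CPM in untreated shINCA1 cells, and at 0.989 ± 0.312 CPM in treated and 1.59 ± 0.259 CPM in untreated shCTRL cells (SD, n = 3). The astroglial marker S100B averaged 1 CPM or more only in the shCTRL groups, and the glial factor OLIG2 only in the shINCA1 groups, at 1.14 ± 0.373 CPM in treated and 1.03 ± 0.196 CPM in untreated shINCA1 cells, against 0.169 ± 0.0315 CPM in treated and 0.270 ± 0.0943 CPM in untreated shCTRL cells. Of 15 immune cell markers, 11 were at 0 counts in treated shINCA1 cells and 10 in each of the other groups. Their summed level was 11.4 to 15.3 CPM, most of it CD68, a lysosomal gene that is not limited to macrophages. The 5 endothelial markers summed to 15.1 to 17.4 CPM in treated and 9.65 to 11.4 CPM in untreated shINCA1 libraries, and to 9.39 to 10.3 CPM in treated and 7.09 to 7.87 CPM in untreated shCTRL libraries, with PECAM1 at 0 in all groups but untreated shINCA1 cells. Most of these sums was KDR, at means of 15.0 and 7.82 CPM in shINCA1 cells and 9.14 and 6.55 CPM in shCTRL cells. In shINCA1 cells the means of VWF (0.727 against 1.74 CPM) and CDH5 were lower with IFNγ, and that of TEK, at few counts, higher. The 5 epithelial markers summed to 2.93 to 3.7995 CPM in shINCA1 libraries and 0.809 to 2.97 CPM in shCTRL libraries. KRT14 averaged 1 CPM or more only in the shINCA1 groups, at 1.83 CPM treated and 1.89 CPM untreated, against 0.342 and 0.238 CPM in shCTRL cells. The means of KRT5 went the other way, at 1.08 and 1.13 CPM against 1.25 and 1.53 CPM, with overlapping libraries. At few counts, EPCAM was also lower in shINCA1 cells, CDH1 was higher, and KRT19 differed in direction between the conditions. The part of these markers in the results was not tested.

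IFI6, the membrane protein gene, was expressed in all libraries and was the least induced of the genes that had counts in untreated cells of both lines. It stood at 13.7, 13.8 and 11.7 CPM in treated shINCA1 cells, against 8.69, 7.18 and 8.23 CPM in untreated shINCA1 cells. In shCTRL cells it stood at 20.8, 21.8 and 22.6 CPM after IFNγ, against 7.57 to 8.76 CPM without it. Treated and untreated libraries did not overlap in either line. The untreated lines overlapped, and the treated lines were apart by more than their spread.

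IFI27, its relative, was near the limit of what these libraries could show. It had 26, 23 and 12 estimated counts in treated shINCA1 libraries, against 0, 0 and 15 counts in untreated ones. In shCTRL cells it had 63, 60 and 49 counts after IFNγ, against 0 in all 3 untreated libraries. In shINCA1 cells the highest untreated library, at 0.223 CPM, thus lay slightly above the lowest treated one, at 0.222 CPM. In shCTRL cells treated and untreated libraries were apart.

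The deposited values pile up at multiples of 3 (5790 values of 3 against 1317 of 4), so 1 sequenced fragment may be worth about 3 counts. The IFI27 counts, those of XAF1 in shINCA1 cells and those of IFI44L in untreated cells (6, 20 and 12 in shINCA1 and 38, 22 and 35 in shCTRL libraries) would then rest on few fragments.

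IFI35, the partner gene of NMI, had the highest level per transcript length of the 6 after IFNγ. It stood at 38.0, 39.1 and 36.0 CPM in treated shINCA1 cells, against 8.24, 9.08 and 9.11 CPM in untreated shINCA1 cells. In shCTRL cells it stood at 54.0, 52.3 and 49.1 CPM after IFNγ, against 8.75, 7.77 and 8.87 CPM without it. As for IFI6, the untreated lines overlapped and the treated lines did not.

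IFI44 was lower in shINCA1 cells at both conditions. It stood at 8.30, 9.52 and 8.33 CPM in treated shINCA1 cells, against 1.43, 1.71 and 2.60 CPM in untreated shINCA1 cells. The shCTRL cells had 35.1, 33.3 and 35.7 CPM after IFNγ, against 6.73, 8.23 and 5.93 CPM without it. The treated shINCA1 libraries thus lay just above the highest untreated shCTRL library, without overlap.

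IFI44L, its paralogue on the same chromosome, stood at 0.802, 0.714 and 1.11 CPM in treated shINCA1 cells, against 0.105, 0.333 and 0.178 CPM in untreated shINCA1 cells. The shCTRL cells had 11.2, 11.7 and 9.89 CPM after IFNγ, against 0.630, 0.467 and 0.629 CPM without it. No pair of these 4 groups overlapped, and the treated shCTRL libraries stood far above the rest. Per kilobase of transcript, IFI44L was at 2.79%, 2.16% and 3.85% of the level of IFI44 in treated shINCA1 cells, against 2.11%, 5.6% and 1.98% in untreated ones. In shCTRL cells it was at 9.19%, 10.1% and 7.99% after IFNγ, against 2.7%, 1.64% and 3.06% without it. The share thus overlapped between conditions in shINCA1 cells and was apart in shCTRL cells.

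XAF1, the antagonist of XIAP, had no count in any untreated library of either line. After IFNγ it had 20, 23 and 17 counts in shINCA1 libraries, and 199, 322 and 255 counts in shCTRL libraries. In CPM these are 0.349, 0.469 and 0.315 in shINCA1 cells, and 4.13, 5.05 and 4.24 in shCTRL cells. The treated lines did not overlap. In bulk RNA, fewer cells that express a gene and less RNA per cell cannot be told apart, here as for the other 5 genes.

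**Figure D2:**
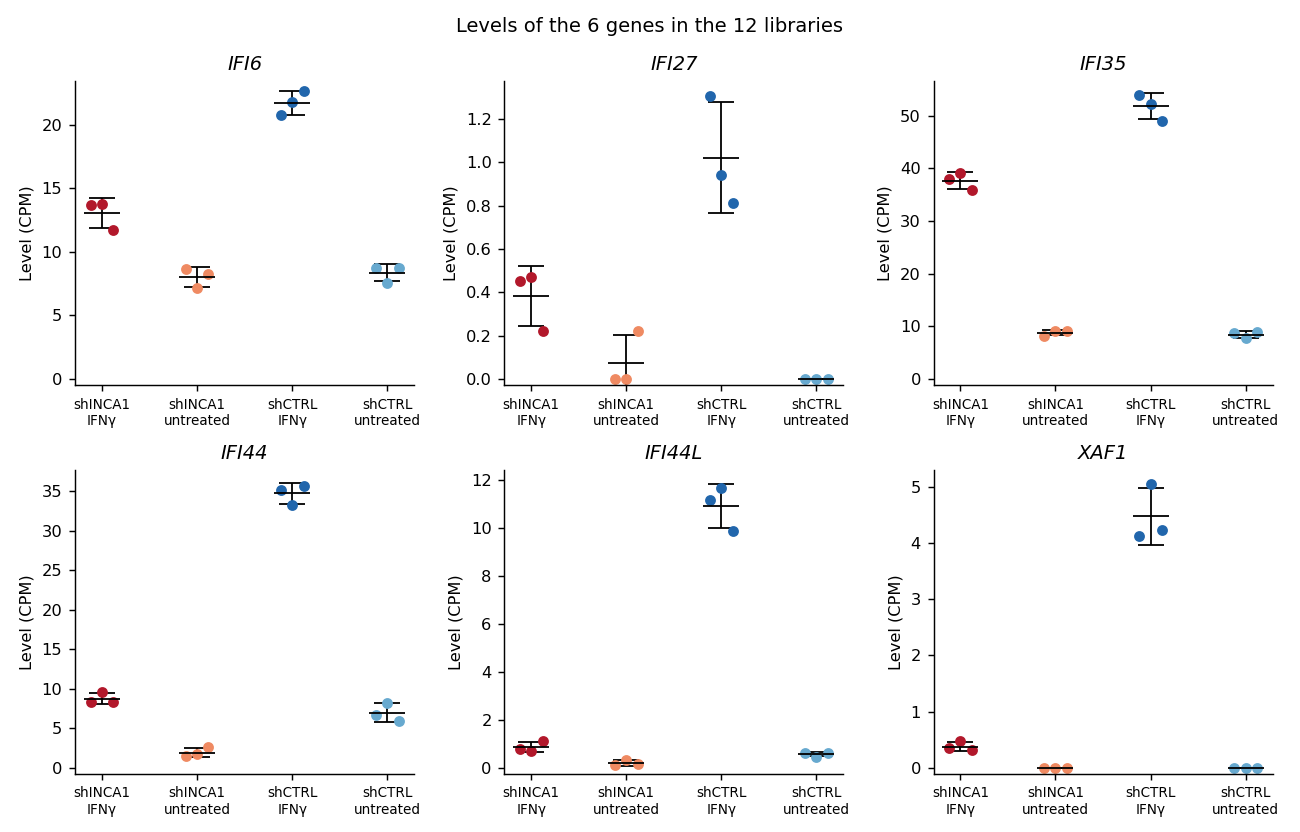
Levels of the 6 genes in CPM (vertical axes, linear, each panel with its own scale) in the 4 groups. Points are single libraries, and horizontal bars with whiskers give the mean ± SD (n = 3). In every panel the treated shCTRL libraries are the highest, and XAF1 is at 0 in all 6 untreated libraries.

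Levels of different genes were set against each other per kilobase of the canonical transcript, an annotation that need not be the one the submitters counted on. In treated shINCA1 cells the order of CPM per kilobase was IFI35 (31.9 ± 1.34), IFI6 (16.1 ± 1.45), IFI44 (5.18 ± 0.415), IFI27 (0.526 ± 0.191), IFI44L (0.150 ± 0.0358) and XAF1 (0.110 ± 0.0237), the last 2 overlapping. In untreated shINCA1 cells IFI6 came first (9.90 ± 0.952), before IFI35 (7.45 ± 0.418) and IFI44 (1.14 ± 0.362). In treated shCTRL cells the order was IFI35 (43.8 ± 2.10), IFI6 (26.8 ± 1.15) and IFI44 (20.6 ± 0.756), then IFI44L (1.87 ± 0.159), IFI27 (1.41 ± 0.353) and XAF1 (1.31 ± 0.147), where each of the last 3 overlapped the next. In untreated shCTRL cells IFI6 (10.3 ± 0.837) stood above IFI35 (7.16 ± 0.511) and IFI44 (4.14 ± 0.694), with IFI44L at 0.0987 ± 0.0161 (SD, n = 3 throughout).

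The first comparison asked how shINCA1 cells answered IFNγ. Of the 6 genes 5 rose, where 6.13% of all tested genes rose and 2.95% fell. XAF1 rose at least 7.76-fold (adjusted p = 0.000148), a bound set by a floor of 3 counts per library in the untreated group, and floors cover counting error only. IFI44 rose 4.52-fold (log2 change 2.18 ± 0.18 (SE), adjusted p = 5.65e-06), IFI35 rose 4.28-fold (2.10 ± 0.07, adjusted p = 5.10e-10) and IFI44L rose 4.24-fold (2.08 ± 0.31, adjusted p = 0.000754). IFI6 rose 1.63-fold (0.70 ± 0.09, adjusted p = 0.000285). IFI27 did not pass the test (2.26 ± 0.99, adjusted p = 0.250, 95% interval 0.03 to 4.49). That result turned on the untreated library 3, the one with 15 counts: without it the log2 change was at least 2.90 (adjusted p = 0.00562). The groups did not overlap for 5 of the 6 genes, all higher, against 13.5% of all genes.

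In shCTRL cells all 6 genes rose, where 9.72% of all tested genes rose and 7.51% fell. XAF1 rose at least 81.0-fold (adjusted p = 1.82e-06) and IFI27 at least 18.5-fold (adjusted p = 0.00492). IFI44L rose 18.8-fold (4.23 ± 0.25, adjusted p = 1.23e-07), IFI35 6.11-fold (2.61 ± 0.07, adjusted p = 5.87e-11), IFI44 4.99-fold (2.32 ± 0.17, adjusted p = 7.74e-07) and IFI6 2.60-fold (1.38 ± 0.09, adjusted p = 4.34e-07). The groups did not overlap for any of the 6 genes, all higher, against 16.5% of all genes. All p-values come from edgeR's quasi-likelihood test, adjusted over all tested genes after Benjamini and Hochberg. The labels do not state separate cultures for the triplicates, so the p-values reflect only how far these libraries differ, and that spread may be technical.

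The share of rises among all calls depended on the scaling, though no call of the 6 genes in these responses did. With TMM factors 67.5% of the calls in shINCA1 and 56.4% in shCTRL cells were rises, and with upper-quartile factors 52.6% and 37.9% were.

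**Figure D3:**
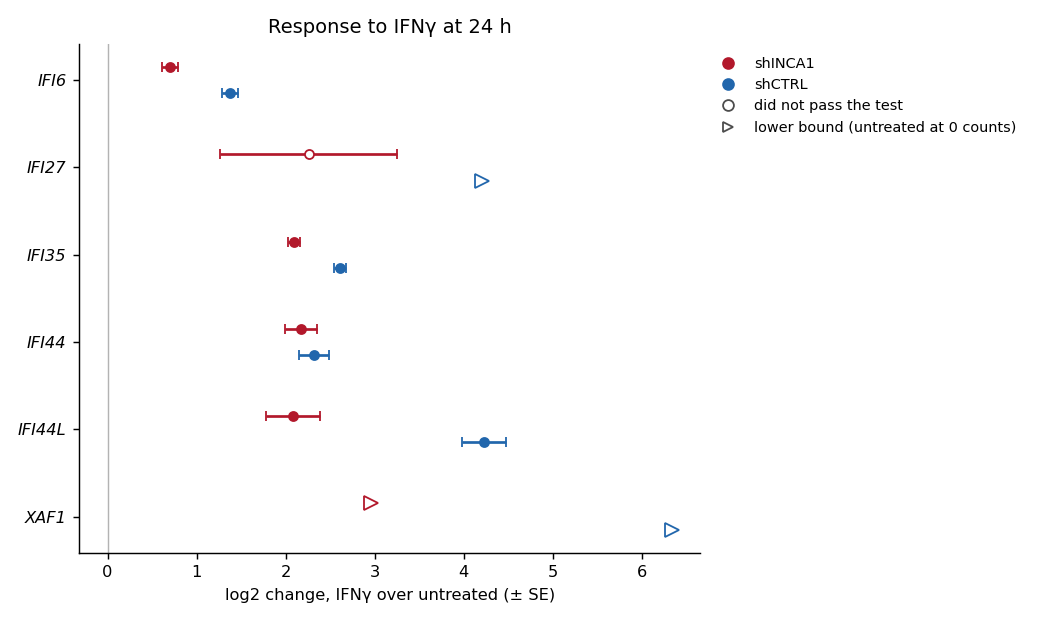
Response to IFNγ of the 6 genes. The horizontal axis is the log2 change, IFNγ over untreated, with whiskers of 1 SE, in shINCA1 (red) and shCTRL cells (blue); open circles did not pass the test and open triangles are lower bounds, drawn where the untreated group had no counts. IFI44 is the gene whose responses lie closest together, at 2.18 and 2.32.

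The hairpin lines were compared with each other first without IFNγ. IFI44 and IFI44L were lower in shINCA1 cells and the other 4 genes did not pass the test, while 29.5% of all tested genes were lower, 27.4% higher and 56.9% either. IFI44 was at 27.5% of its shCTRL level (log2 difference -1.85 ± 0.18 (SE), adjusted p = 3.20e-06), and IFI44L at 35.6% (-1.49 ± 0.32, adjusted p = 0.00179). These were also the 2 genes whose libraries did not overlap, both lower, against 32.4% of all genes lower and 30.4% higher. IFI6 differed by -0.06 ± 0.09 (adjusted p = 0.619, 95% interval -0.26 to 0.14) and IFI35 by 0.06 ± 0.07 (adjusted p = 0.495, 95% interval -0.09 to 0.20). For IFI27, with 15 counts in 1 library and 0 in the other 5, and for XAF1, at 0 in all 6, no fold is given. The adjusted p of IFI27 was 0.0666. Without untreated shINCA1 library 1 or 2, both at 0, it passed as higher in shINCA1 cells (adjusted p = 0.0302 and 0.0277), a call that rests on the 15 counts of library 3.

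With IFNγ all 6 genes were lower in shINCA1 cells in every library, which held for 33.8% of all genes, and 5 of them passed the test, against 30.2% of all tested genes. IFI44L was at 8.02% of its shCTRL level (-3.63 ± 0.23, adjusted p = 7.75e-08), XAF1 at 8.44% (-3.56 ± 0.25, adjusted p = 6.26e-06) and IFI44 at 25.1% (-1.99 ± 0.16, adjusted p = 5.98e-07). IFI6 was at 60.1% (-0.73 ± 0.09, adjusted p = 1.91e-05) and IFI35 at 72.8% (-0.46 ± 0.06, adjusted p = 4.61e-05). IFI27 stood at 0.381 ± 0.138 CPM in shINCA1 cells and 1.02 ± 0.256 CPM in shCTRL cells (SD, n = 3 each), and it did not pass (-1.41 ± 0.85, adjusted p = 0.182). It passed when the untreated groups were left out of the fit (adjusted p = 0.0116) or without untreated shINCA1 library 3 alone (adjusted p = 0.0300), at log2 differences of -1.41 in both cases. Many genes thus differed between the lines in either direction, 58.9% of all tested genes with IFNγ (28.7% higher), and libraries did not overlap, higher in shINCA1 cells, for 32.7%.

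**Figure D4:**
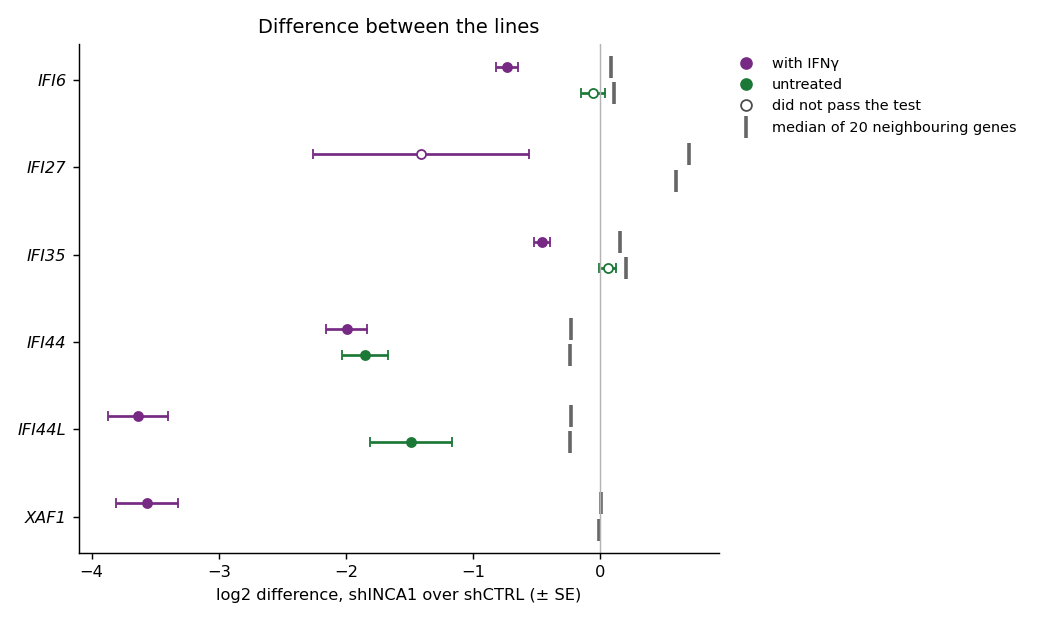
Difference between the lines for the 6 genes. The horizontal axis is the log2 difference, shINCA1 over shCTRL, with whiskers of 1 SE, with IFNγ (purple) and untreated (green); open circles did not pass the test, and grey ticks give the median difference of the 20 neighbouring tested genes. IFI27 and XAF1 have no untreated value. With IFNγ all 6 genes lie below their neighbours' median. Untreated, IFI44 and IFI44L lie below it, and IFI6 and IFI35 slightly so, at -0.17 and -0.14 from it.

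The difference of the IFNγ responses, shINCA1 minus shCTRL, was then tested. The response was smaller in shINCA1 cells for 3 of the 6 genes, against 1.1% of all tested genes with a smaller and 0.615% with a larger response. IFI44L responded less by 2.15 ± 0.41 on the log2 scale (log2 difference -2.15, adjusted p = 0.0226), IFI6 by 0.68 ± 0.13 (-0.68, adjusted p = 0.0209) and IFI35 by 0.52 ± 0.09 (-0.52, adjusted p = 0.0146). IFI44 did not pass, at -0.14 ± 0.24 (adjusted p = 0.907, 95% interval -0.67 to 0.39). For XAF1, at 0 in both untreated groups, and IFI27, at 0 in untreated shCTRL cells, no value is given.

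These 3 calls lay close to the threshold of 0.05. That of IFI35 was lost without untreated shINCA1 library 3 or treated shCTRL library 2 (adjusted p 0.0555 and 0.0535). That of IFI6 was lost without untreated shINCA1 library 1 or 3, treated shCTRL library 2 or 3 or untreated shCTRL library 2 (adjusted p 0.0535 to 0.0607). That of IFI44L was lost without treated shINCA1 library 1 or 2, untreated shINCA1 library 2 or 3, treated shCTRL library 1 or 2 or untreated shCTRL library 2 (adjusted p 0.0538 to 0.0870), and with limma-voom (adjusted p = 0.111). The direction was kept in each case.

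The partner and family genes of the 6 moved in part differently. NMI, which pairs with IFI35, stood at 37.8, 38.9 and 37.8 CPM in treated shINCA1 cells, against 5.33, 4.79 and 5.01 CPM in untreated ones. The shCTRL cells had 63.7, 64.1 and 62.0 CPM after IFNγ, against 10.97 to 11.9 CPM without it. NMI was lower in shINCA1 cells already without IFNγ (-1.18 ± 0.05, adjusted p = 2.33e-09), where IFI35 did not pass. Its response was larger in shINCA1 cells by 0.45 ± 0.07 (adjusted p = 0.00476), where that of IFI35 was smaller.

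IFI27L1 and IFI27L2, relatives of IFI27 next to it on chromosome 14, did not pass the test for IFNγ in either line. The changes of IFI27L1 were -0.03 ± 0.10 in shINCA1 cells (adjusted p = 0.926) and 0.04 ± 0.10 in shCTRL cells (adjusted p = 0.862), and those of IFI27L2 were -0.11 ± 0.08 (adjusted p = 0.530) and 0.02 ± 0.08 (adjusted p = 0.907). Both were higher in shINCA1 cells without IFNγ, IFI27L1 by 0.51 ± 0.10 (adjusted p = 0.000932) and IFI27L2 by 0.85 ± 0.08 (adjusted p = 2.97e-06), and both were higher with IFNγ. Reads shared between such paralogues could be split between them in the counting. IFI16 and IFI30, which share the IFI name only, rose in both lines. IFI16, a DNA sensor, changed by 2.17 ± 0.04 in shINCA1 and 1.90 ± 0.04 in shCTRL cells, and IFI30, a lysosomal thiol reductase, by 1.21 ± 0.04 and 2.34 ± 0.04, with adjusted p-values no higher than 1.74e-09 in the 4 tests. Of the 9 relatives and partners listed, 6 were tested. Of these 3 rose in shINCA1 cells, where 6.13% of all tested genes rose, and 4 rose in shCTRL cells, where 9.72% did.

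XIAP, the protein that XAF1 binds, did not pass in either response, at -0.02 ± 0.20 in shINCA1 cells (adjusted p = 0.982) and 0.43 ± 0.20 in shCTRL cells (adjusted p = 0.185). Its level was 39.1 CPM in treated shINCA1 library 1, against 80.6 and 80.2 CPM in the other 2 of that group. Without that library XIAP rose by 0.25 ± 0.06 in shINCA1 (adjusted p = 0.0269) and 0.43 ± 0.05 in shCTRL cells (adjusted p = 0.00018). Between the treated lines it was lower in shINCA1 cells, with a log2 difference of -0.63 ± 0.20 (adjusted p = 0.0171), and of -0.36 ± 0.06 without that library (adjusted p = 0.000378). Between the untreated lines it did not pass (-0.18 ± 0.20, adjusted p = 0.475). Without treated shINCA1 library 1 it passed there too, as lower in shINCA1 cells (-0.18, adjusted p = 0.0133). Of the list of XIAP and the apoptosis machinery 23 genes were tested. In shINCA1 cells 9 rose and none fell, where 6.13% of all tested genes rose and 2.95% fell. In shCTRL cells 9 rose and 1 fell, where 9.72% rose and 7.51% fell. With upper-quartile factors 9 rose and 2 fell in shINCA1 cells, and 8 rose and 2 fell in shCTRL cells. The fall, that of HTRA2 (adjusted p = 0.0341), was lost without some single libraries (adjusted p up to 0.116). So were the rises of BIRC3 in shCTRL (adjusted p = 0.0369) and shINCA1 cells (adjusted p = 0.0162). The median log2 changes of the list were 0.03 in shINCA1 and 0.01 in shCTRL cells. The death receptor gene FAS rose by 1.77 ± 0.09 in shINCA1 and 2.64 ± 0.09 in shCTRL cells, and these responses differed (-0.87 ± 0.12, adjusted p = 0.00270). TNFSF10, the death ligand TRAIL, rose by 2.41 ± 0.14 in shINCA1 and 2.41 ± 0.12 in shCTRL cells.

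Of the signalling genes upstream of the 6, 18 were tested between the lines. In shINCA1 cells 11 were lower, 1 was higher and 6 did not pass without IFNγ, where 29.5% of all tested genes were lower and 27.4% higher. With IFNγ 15 were lower, 2 were higher and 1 did not pass, where 30.2% of all tested genes were lower and 28.7% higher. The higher ones were PIAS1, an inhibitor of STAT factors, at both conditions (0.21 ± 0.05 without and 0.16 ± 0.05 with IFNγ) and the kinase gene TYK2 with IFNγ (0.19 ± 0.07), both named after their values were seen. With IFNγ the call of PIAS1 (adjusted p = 0.015) was lost without treated shCTRL library 3 or treated shINCA1 library 2 (adjusted p 0.0672 and 0.0624). That of TYK2 (adjusted p = 0.0323) was lost without treated shCTRL library 2 or 3 or treated shINCA1 library 1 or 2 (adjusted p 0.056 to 0.115). The list stood at median log2 differences of -0.37 and -0.64, where the median of all tested genes was -0.01 and 0.00. IRF9 rose by 3.10 ± 0.11 in shINCA1 and 2.57 ± 0.10 in shCTRL cells, and STAT2 by 1.68 ± 0.07 in shINCA1 and 1.83 ± 0.07 in shCTRL cells. Among the 18, the responses of 2 differed, where those of 1.71% of all tested genes did. These were the kinase gene JAK2 (-1.04 ± 0.11, adjusted p = 0.000527) and the feedback inhibitor gene SOCS1 (-2.05 ± 0.32, adjusted p = 0.00672).

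Other interferon-stimulated genes gave the scale for the 6. Of 34 tested, 32 rose in shINCA1 cells and 32 in shCTRL cells, where 6.13% and 9.72% of all tested genes rose. Their median log2 changes were 3.18 (2.74 with genes of an empty untreated group at their bound) and 3.03. The median of all tested genes was 0 and -0.01. Without IFNγ 20 were lower and 4 higher in shINCA1 cells, where 29.5% of all tested genes were lower and 27.4% higher. With it 30 were lower and 2 higher, where 30.2% of all tested genes were lower and 28.7% higher. Examples with IFNγ are IFITM1 (-3.36 ± 0.15), SAMD9L (-3.46 ± 0.17) and IFIT3 (-1.91 ± 0.09), while IFITM2 was higher (0.87 ± 0.05). In the difference of responses 6 were lower and 5 higher, where 1.1% and 0.615% of all tested genes were. This balance was 5 and 5 with DESeq2 size factors and 4 and 5 with upper-quartile factors. Among the 30 genes with counts in all 4 groups, 6 were lower and 4 higher. That leaves out OAS1, higher, at 0 counts in untreated shINCA1 cells. The calls of TRIM22, IFIT1, IFIH1, IFIT3, DDX58 and SP110 were each lost without some single libraries (adjusted p 0.0503 to 0.142). TRIM22 had 8 counts in untreated shINCA1 cells. DTX3L (0.79 ± 0.06, adjusted p = 3.55e-05) and PARP9 (1.02 ± 0.10, adjusted p = 0.00027) responded more in shINCA1 cells, and PLSCR1 (-0.83 ± 0.07, adjusted p = 0.000134) less.

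**Figure D5:**
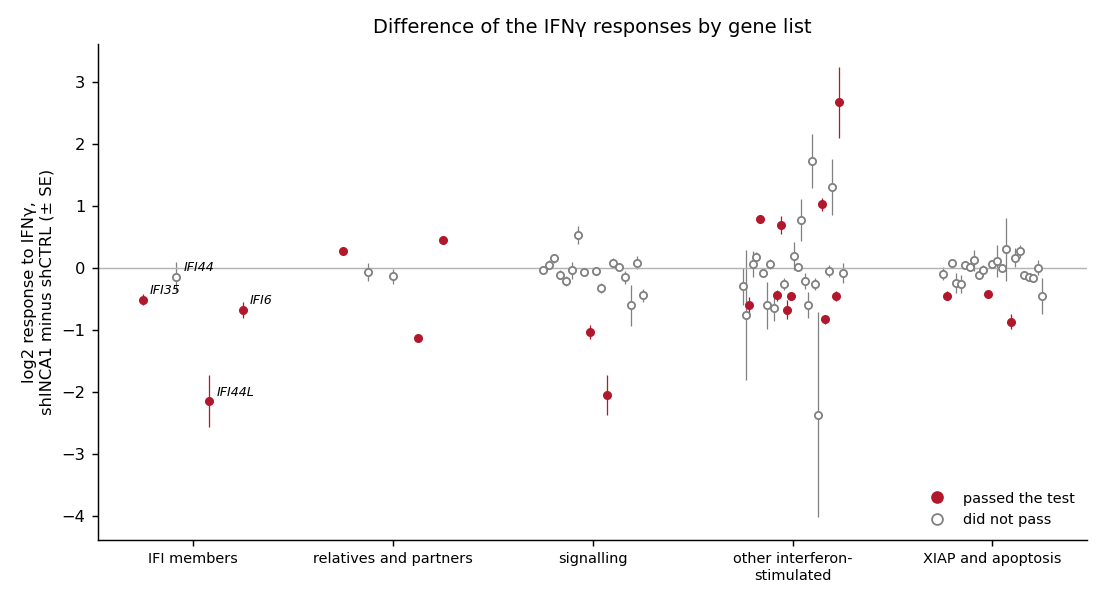
Difference of the IFNγ responses, shINCA1 minus shCTRL, on the log2 scale (vertical axis) with whiskers of 1 SE, for the genes of each list (horizontal axis) that had counts in all 4 groups. Filled red points passed the test and open grey points did not. The 4 members shown lie between -2.15 and -0.14, the 30 other interferon-stimulated genes between -2.37 and 2.67.

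The genes whose levels ran most like those of a member were sought over the 12 libraries, among 12969 genes with a mean of at least 1 CPM, as the Pearson r of log2 CPM. These values are descriptions, since the libraries fall into the same 4 groups for all genes. IFI6 ran most like HLA-F (r = 0.993), CXCL9 (0.9845) and RIPK2 (0.984), and IFI35 most like APOL2 (0.998), IDO1 (0.997) and GBP4 (0.997). XAF1 ran most like the chemokine gene CXCL11 (0.998), PLSCR1 (0.995) and ALPK1 (0.995). For IFI44 the likest genes were TRIM38 (0.992), PHACTR1 (0.990) and SPTLC3 (0.989), for IFI44L SOS1 (0.990), RFC1 (0.983) and HEG1 (0.983), and for IFI27 CLIP2 (0.960), RNF114 (0.943) and MLLT3 (0.940). A high r does not mean a change of like size: in shCTRL cells SOS1 changed by 0.47 ± 0.04, against 4.23 for IFI44L. Among the 6 genes r was highest for IFI6 with XAF1 (0.978) and lowest for IFI27 with IFI44L (0.706).

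The 20 tested genes around each member were set beside it, with 56.9% of all tested genes called between the untreated lines and 58.9% between the treated ones. On chromosome 1 the nearest tested genes on either side of the IFI44L and IFI44 pair were PTGFR, a prostaglandin receptor gene, and ADGRL4, an adhesion receptor gene. PTGFR had no count in untreated shINCA1 cells, against 10.3 ± 0.762 CPM in untreated shCTRL cells, and was at least 212-fold lower. With IFNγ it was at 0.0982 ± 0.0924 CPM in shINCA1 cells and 10.5 ± 1.57 CPM in shCTRL cells (SD, n = 3). ADGRL4 was at 0 in all 6 shINCA1 libraries and was at least 15.4-fold lower with IFNγ and 16.2-fold lower without it. Of the 20 tested genes around the pair, 11 were lower and 2 higher in shINCA1 cells without IFNγ, at a median of -0.24. The median of 20 genes says nothing of the nearest ones, PTGFR and ADGRL4. With the median subtracted the difference of IFI44 was -1.61 and that of IFI44L -1.25 without IFNγ, and with it -1.76 for IFI44 and -3.40 for IFI44L.

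Around IFI27 on chromosome 14 the balance was the other way. Of its 20 neighbours 14 were higher and 2 lower in shINCA1 cells at both conditions, at medians of 0.59 without and 0.70 with IFNγ, while IFI27 itself was lower with IFNγ in every library. Around IFI6 on chromosome 1 the median was 0.11 without and 0.09 with IFNγ. There 11 neighbours were higher and 3 lower without IFNγ, and 8 higher and 2 lower with it. Around IFI35 on chromosome 17 the median was 0.20 and 0.16, with 10 higher and 2 lower, then 8 higher and 3 lower. Around XAF1, also on chromosome 17, it was -0.01 and 0.01, with 6 higher and 3 lower, then 5 higher and 4 lower. What part the surroundings have in the differences of the 6 genes was not tested.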

How the data were processed

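Stranded messenger RNA libraries were made from the 12 samples, per the labels. The deposited table holds expected counts, that is, estimated counts per gene symbol, whole numbers that the authors did not scale between samples. FastQC, Trimmomatic, HISAT2, StringTie and build hg19 are listed per the submitters' processing notes. Tool versions, the annotation and the way reads were counted are not stated there.

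Samples were grouped by title, and 0 columns were left unmapped. The fit used edgeR 4.0.16 under R 4.3.3 (filterByExpr, TMM factors, quasi-likelihood tests on all 12 samples with 1 coefficient per group), tested on simulated data. P-values were two-sided and adjusted by Benjamini-Hochberg over 15769 genes at 0.05. Standard errors are the log2 change over the root of F. A group at 0 was given a floor of 3 counts per library (0.0487 to 0.0561 CPM). Symbols (26666 of 27683 matched) were ordered on GRCh38 with RefSeq. Sequences are from RefSeq.

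The members and lists were chosen with earlier results of these data known. The genes named are the 6 members in all comparisons, up to 4 genes per list and comparison by p, the 3 genes most like each member, fixed partners (among them IFI27L1, IFI27L2, NMI and XIAP), INCA1 and nearest neighbours, of which a part is reported; some genes the rule names are not reported here. GFAP, S100B, OLIG2, VIM, CD44, SOX9, SLC1A3, CHI3L1, NES, SOX2, FABP7, CD68, PECAM1, KDR, VWF, CDH5, TEK, KRT14, KRT5, EPCAM, CDH1 and KRT19 are named from the marker list. OAS1, TRIM22, DDX58, SP110, HTRA2 and BIRC3 were named after their values were seen. The alternatives, run with limma 3.58.1 and DESeq2 1.42.0 where they need them, were other scalings, filters and tests, fits of the compared groups alone, fits without each library, a block for replicate number and the median of 20 neighbouring genes subtracted. Leaving libraries out for genes other than the members was added after seeing the data.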

Additional observations from a re-analysis of the deposited data

Results flagged for a closer look

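The IFNγ response of 3 of the 6 genes differed between the lines in the test of the difference, against 1.71% of all tested genes. IFI44L responded less in shINCA1 than in shCTRL cells, with a log2 difference of -2.15, IFI6 responded less with -0.68, and IFI35 responded less with -0.52. The treated libraries of the lines did not overlap for any of the 3, lower in shINCA1 cells, as for 33.8% of all genes. The untreated libraries overlapped for IFI6 and IFI35 but not for IFI44L, which was lower, as were 32.4% of all genes. The 3 calls lay close to the threshold (quasi-likelihood test, adjusted p 0.0146 to 0.0226). Each was lost without some single libraries, with adjusted p-values up to 0.0555 for IFI35, 0.0607 for IFI6 and 0.0870 for IFI44L.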

How the results depend on the processing

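Of 524 values of the 26 tested changes of the members under 21 alternatives, 499 kept their direction and their side of the threshold. The rest concerned IFI27 and the difference of responses, plus values near 0. With limma-voom IFI27 passed in the response of shINCA1 cells (3.77, adjusted p = 0.0417) and between the treated lines (-1.42, adjusted p = 0.0163), as it did between the treated lines in the fit of the 2 groups alone (-1.41), and the difference of responses of IFI44L was lost (-2.04). With the replicate number as a block, IFI44L was lost as well (-2.14, adjusted p = 0.0591), and no other call of a member changed. Same-numbered libraries did not deviate together (correlations of -0.0334 to 0.0615), so the numbers are only names. The untreated difference of IFI35 was -0.14 with the neighbours' median subtracted and -0.0078 to 0.10 with a library left out, that of IFI6 was -0.13 to 0.024, and the difference of responses of IFI44 was -0.30 to 0.16. Other ranges with a library left out concerned the difference of responses and IFI27. In the difference of responses they were -0.76 to -0.60 for IFI6, -0.55 to -0.45 for IFI35 and -2.43 to -1.65 for IFI44L. For IFI27 they were -1.58 to -1.15 between the treated lines, and 1.70 to at least 2.90 for the response in shINCA1 cells. The 2.90 is a lower bound, from the fit without untreated shINCA1 library 3, which left the untreated group at 0 counts. Genes called in the difference of responses numbered 270, 509 with DESeq2's Wald test, and 174 to 235 with a library left out, the lowest being 174 without untreated shINCA1 library 3 and 179 without treated shCTRL library 2. The XIAP response in shINCA1 cells was -0.02, and 0.25 without treated library 1. IFI27 and XAF1 had no value under the filter of 5 CPM in 3 samples. The pseudocount alternative planned for normalised values was not run, since the values are counts. The cause was not tested in any case. Depth limits IFI27 and XAF1, whose counts were at most 63 and 322 per library, and IFI44L, which had 6 to 20 counts in untreated shINCA1 and 22 to 38 in untreated shCTRL libraries.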
